A study of Homo sapiens with 12 samples.

Results

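The human mitochondrial chromosome carries 37 genes, of which 13 code for mRNAs, 2 for rRNAs and 22 for tRNAs, and all 37 are among the 59424 genes measured here. They were chosen by their place on chromosome M of GRCh38 and a symbol starting with MT- in GENCODE release 29, so no measured value decides membership. The topic itself was selected on results of the same 2 comparisons, and the counts and p-values given for the members therefore describe these libraries and are not independent support. RNA was sequenced from 2 prostate cancer cell lines, each with 3 biological replicates per group. CWR22Rv1 cells carried either a lentiviral control (shControl) or a GALNT7 knockdown by shRNA (GALNT7 KD), and DU145 cells carried either a Lenti-ORF control (OE control) or GALNT7 overexpression (GALNT7 OE). All 4 groups are stable lines made by lentiviral transduction, so the controls share the transduction with the cells they are compared with, and GALNT7 is a Golgi enzyme that adds N-acetylgalactosamine to proteins in O-linked glycosylation. Libraries came from polyadenylated RNA with the strand kept, and held between 18364512 and 24356910 reads. Whether the lines are pools or single clones, and how the replicate cultures were kept apart, is not given in the sources used here.

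Mitochondrial DNA is read on both strands into long precursors. The heavy strand gives both rRNAs, most tRNAs and all mRNAs but MT-ND6, which comes from the light strand. tRNAs that lie between the other genes are cut out by RNase P and ELAC2, which frees the mRNAs and rRNAs (the tRNA punctuation model). Most of the mRNAs then receive a short poly(A) tail, which also completes stop codons that the DNA only begins, whereas the MT-ND6 mRNA is known to lack one. The mRNAs encode core subunits of respiratory chain complexes I, III, IV and of the ATP synthase, complex V, and the rRNAs belong to the mitochondrial ribosome.

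The sequences below come from the GENCODE release 29 transcripts on GRCh38 and are written 5′ to 3′ along each gene. The last 30 bases of 4 mRNA genes as annotated are shown because the libraries were made through the poly(A) tail. The annotated end of a gene need not be the end of its mRNA or the place where a tail joins. Capitals mark the stop codon or the bases of it that the gene holds. In 6 of the 13 mRNA genes as annotated the stop codon is only begun (MT-ND1, MT-ND2, MT-CO3, MT-ND3, MT-ND4 and MT-CYB), as in the first and second lines. In the other 7 it is whole, but the last base of the MT-ATP6 stop codon (chrM:9207) is also the first base of MT-CO3.
MT-ND4, chrM:10760-12137, plus strand: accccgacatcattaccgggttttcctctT
MT-CYB, chrM:14747-15887, plus strand: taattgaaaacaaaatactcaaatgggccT
MT-CO1, chrM:5904-7445, plus strand: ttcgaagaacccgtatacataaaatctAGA
MT-ND6, chrM:14149-14673, minus strand: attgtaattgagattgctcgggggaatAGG
MT-ND6 differs from the 12 heavy strand mRNAs in composition as well. Its sense strand is 35.6% G and 7.05% C, against medians of 11.2% G and 33.4% C over the 12.

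There are 2 pairs of mRNA genes that share more than 1 base, and reads from the shared stretch cannot be assigned to one gene by sequence. MT-ATP8 and MT-ATP6 share 46 bases and MT-ND4L and MT-ND4 share 7, and each pair is carried by one mRNA. In the shared stretches, capitals mark the start codon of the second gene and the stop codon of the first.
MT-ATP8 and MT-ATP6, chrM:8527-8572, plus strand: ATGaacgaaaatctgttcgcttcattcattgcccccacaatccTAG
MT-ND4L and MT-ND4, chrM:10760-10766, plus strand: ATGcTAA
Also shown are the 5 tRNA genes that were lower in GALNT7 OE cells (below), with up to 12 bases of any heavy strand member that touches them. Capitals mark the tRNA gene and lower case the touching rRNA or mRNA gene. MT-TV touches a longer gene on both sides and the other 4 on one side.
MT-TV, chrM:1590-1682, plus strand: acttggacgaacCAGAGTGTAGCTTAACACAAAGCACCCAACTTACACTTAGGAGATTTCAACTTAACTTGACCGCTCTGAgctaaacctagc
MT-TL1, chrM:3218-3304, plus strand: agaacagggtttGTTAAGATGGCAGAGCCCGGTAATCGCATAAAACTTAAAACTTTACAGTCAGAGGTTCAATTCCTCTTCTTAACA
MT-TM, chrM:4402-4481, plus strand: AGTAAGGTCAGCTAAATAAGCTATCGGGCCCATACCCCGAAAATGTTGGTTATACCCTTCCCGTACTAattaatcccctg
MT-TD, chrM:7518-7597, plus strand: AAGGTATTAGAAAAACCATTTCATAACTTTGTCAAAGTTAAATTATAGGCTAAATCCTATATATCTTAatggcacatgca
MT-TT, chrM:15876-15953, plus strand: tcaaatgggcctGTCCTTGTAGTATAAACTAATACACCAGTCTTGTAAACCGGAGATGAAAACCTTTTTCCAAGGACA
MT-TV lies between MT-RNR1 and MT-RNR2, MT-TL1 follows MT-RNR2, MT-TM precedes MT-ND2, MT-TD precedes MT-CO2 and MT-TT follows MT-CYB.

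GALNT7 itself was lower in GALNT7 KD cells, with normalised counts of 999 ± 122 (SD, n = 3) in shControl and 461 ± 53.7 (SD, n = 3) in GALNT7 KD, and higher in GALNT7 OE cells, with 964 ± 75.8 and 2181 ± 176 (SD, n = 3 each). A normalised count is the number of reads on a gene divided by a size factor of the library, as deposited. Of the markers fixed for the cell lines, KLK3, the gene of prostate-specific antigen, lay between 339 and 856 in the CWR22Rv1 libraries and was at 0 in the DU145 libraries, where VIM lay between 16225 and 19758. PTPRC, which marks leukocytes, did not exceed 2.10 in any library. Of the 3 markers of other cells, COL1A1, a fibroblast collagen, was lower in GALNT7 OE (53.6 to 154) than in the OE control (287 to 419; log2 fold change -2.01, limma adjusted p = 0.0059), and the 3 summed to 292 to 422 in the OE control and 60.1 to 156 in GALNT7 OE. PECAM1, of endothelial cells, counted 2.86, 5.11 and 4.03 in the OE control and 2.00, 6.47 and 49.3 in GALNT7 OE, with overlapping groups (log2 fold change 1.08, limma adjusted p = 0.41) and only GALNT7 OE 3 high. The part of such cells in the DU145 results was not tested. As each cell line has a table with its own scaling, no level is set against one of the other line, while a share of the reads of one library can be set beside another.

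Before any comparison, 3 libraries stand apart in their mitochondrial reads, all with the replicate number 2: shControl 2, GALNT7 KD 2 and GALNT7 OE 2. Where the mean over 6 libraries reached a normalised count of 50, 15 of the 16 members were more than 2-fold below both other replicates in shControl 2, 6 of 16 in GALNT7 KD 2 and 4 of 18 in GALNT7 OE 2. No member was so in any of the other 9 libraries, OE control 2 included. Over all genes at that level, the same held for 103 and 106 of 12959 genes in shControl 2 and GALNT7 KD 2 and for 71 of 13637 in GALNT7 OE 2, against 54 to 80 in the other 9 libraries. The labels give no batch or date for these libraries. What sets them apart was not tested, and the counts and gene values below are therefore given with all libraries and, where they turn on it, with the number 2 libraries of both groups left out, an alternative chosen after the data were seen.

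The share of all reads that fell on the 37 genes was lower on average in GALNT7 KD than in shControl cells, but the groups overlapped. It was 2.64%, 0.879% and 2.64% in the shControl replicates 1, 2 and 3, and 1.71%, 0.880% and 1.63% in the GALNT7 KD replicates. The 2 number 2 libraries were at nearly the same low share, and the other GALNT7 KD libraries lay below the other shControl libraries. The means were 2.05% ± 1.02 (SD, n = 3) and 1.41% ± 0.459 (SD, n = 3), which did not differ beyond the spread between replicates (two-sided exact permutation test, p = 0.4; 0.1 is the smallest possible with 3 against 3 libraries). Between the replicates 1 and 3 alone, the mean share in GALNT7 KD was 0.634 times that in shControl, and between the number 2 libraries the ratio was 1.00. In DU145 cells the share was higher than in any CWR22Rv1 library for all but GALNT7 OE 2.

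After GALNT7 overexpression the share was lower in each library than in any control. It was 4.43%, 4.38% and 5.27% in the OE control replicates and 2.84%, 1.69% and 3.45% in the GALNT7 OE replicates. The means of 4.69% ± 0.499 and 2.66% ± 0.895 (SD, n = 3 each) have a ratio of 0.567, with no overlap between the groups (p = 0.1 by two-sided exact permutation, the smallest possible). With the number 2 libraries left out the ratio was 0.649.

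By class, most of these reads came from the mRNAs. Their share of all reads was 2.44%, 0.785% and 2.43% in shControl, 1.56%, 0.784% and 1.49% in GALNT7 KD, 3.74%, 3.68% and 4.46% in the OE control and 2.42%, 1.39% and 2.95% in GALNT7 OE. The 2 rRNA genes took 0.0936% to 0.204% of the reads of shControl libraries, 0.0958% to 0.147% in GALNT7 KD, 0.684% to 0.802% in the OE control and 0.295% to 0.495% in GALNT7 OE. Reads on the 22 tRNA genes were rare, from 64 reads in shControl 2 to 814 in OE control 3, or 0.000287% to 0.00369% of a library. In knockdown the groups overlapped in each class (two-sided exact permutation tests, p = 0.3, 0.4 and 0.7 for mRNA, rRNA and tRNA). In overexpression they did not overlap in any (p = 0.1 for each, two-sided exact permutation tests), with ratios of the means of 0.569 for mRNA, 0.556 for rRNA and 0.489 for tRNA. The 95% Wilson interval of a single library's share, which covers counting error only, was 0.875% to 0.882% for all 37 genes in shControl 2, and 0.000225% to 0.000367% for its tRNA genes.

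**Figure D1:**
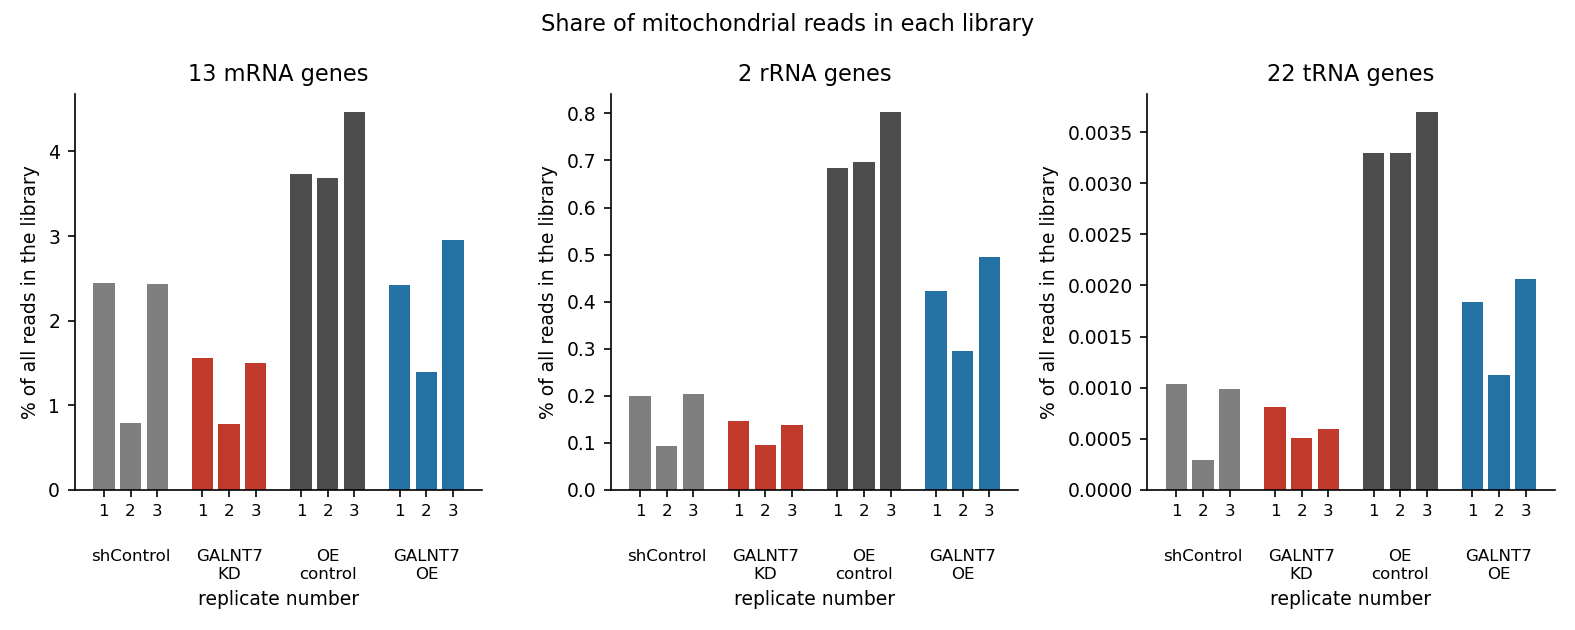
Share of all reads of a library, in percent, on the 13 mRNA, 2 rRNA and 22 tRNA genes of the mitochondrial chromosome, one bar per library and one colour per group, with axes that start at 0 and differ between panels. The number 2 bar is the lowest of shControl, GALNT7 KD and GALNT7 OE in each panel, and the 3 GALNT7 OE bars are below the 3 OE control bars in each panel.

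Levels between genes are compared here as normalised count per 1000 bases of the gene. In shControl cells MT-CO2 was the highest with 75952 ± 42955 (SD, n = 3), followed by MT-ATP6 with 70433 ± 40551, MT-CO1 with 49086 ± 20726 and MT-CO3 with 47799 ± 20052. Neighbours in this order of means differed by less than the sum of their SDs, except that MT-RNR1 stood above MT-ND6. These SDs include the low values that most of the genes share in shControl 2, so they say little about the order within a library. MT-CO2 stood above MT-ATP6 and MT-CO1 above MT-CO3 in all 3 shControl libraries, and MT-ATP6 above MT-CO1 in 2 of the 3. MT-ND6 was by far the lowest of the 15 mRNAs and rRNAs with 319 ± 21.1 per 1000 bases. In OE control cells MT-CO2 was again first with 168887 ± 16082 (SD, n = 3), then MT-CO1, MT-CO3 and MT-ATP6, and MT-ND6 last with 521 ± 205. There, neighbours differed by more than the sum of their SDs between MT-ND2 and MT-ND4L and between each of MT-ND3, MT-ND5, MT-RNR1 and MT-ND6, the 4 lowest. The median of the 12 heavy strand mRNAs per 1000 bases was 38.3 to 138 times the MT-ND6 level in the CWR22Rv1 libraries and 92.8 to 197 times in the DU145 libraries, with the lowest ratio in shControl 2.

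Differences between groups were tested with limma on log2(normalised count + 1) over genes whose mean over the 6 libraries reached 5, and log2 fold changes on this scale understate the change of genes with few reads. Of the 37 members, 17 entered the test in CWR22Rv1 cells (13 mRNAs, 2 rRNAs and 2 tRNAs) and 27 in DU145 cells (13, 2 and 12). In bulk RNA, fewer mitochondrial RNAs per cell and fewer cells that carry them cannot be told apart. Shares and normalised counts are also relative to the other RNAs of a library, so they do not give an amount of RNA per cell.

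With all libraries, knockdown left 1 of the 17 members past an adjusted p of 0.05, the light strand mRNA MT-ND6, which encodes a complex I subunit. Over all 17906 genes tested, 3.79% were called lower and 5.28% higher, so that 1 lower member of 17 is near the background. No member was called higher by limma, edgeR or DESeq2, and none had a higher level at an unadjusted p under 0.05. MT-ND6 counted 168.9, 155.6 and 177.6 in the shControl replicates and 86.0, 68.3 and 81.9 in the GALNT7 KD replicates. The groups did not overlap, and the number 2 libraries were close to the others for this gene. Its log2 fold change was -1.08 (SE 0.14, limma adjusted p = 0.0084), resting on 64 to 194 reads a library. Without the number 2 libraries the log2 fold change was -1.04, but the adjusted p was 0.054.

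The 12 heavy strand mRNAs and the 2 rRNAs had overlapping groups in knockdown, because shControl 2 lay near or below the GALNT7 KD libraries. Their log2 fold changes ran from -0.76 for MT-ATP6 to 0.02 for MT-ND3 and had standard errors (SE) of 0.30 to 0.60. The median over the 13 mRNAs was -0.51, beside -0.0063 for all genes tested. It was -0.75 without the number 2 libraries of both groups, -1.06 without shControl 2 alone and -0.19 without GALNT7 KD 2 alone. With both left out, 12 of 18 members were called lower (11 mRNAs and MT-RNR2) and none higher by limma (none at an unadjusted p under 0.05 either), where 0.964% of all genes were called lower and 1.32% higher. This setting was chosen for the low mitochondrial reads of those libraries, so its count is a description.

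The genes of complex V had the largest differences among the heavy strand mRNAs. MT-ATP6, a membrane subunit of the proton channel, counted 64257, 16080 and 63559 in shControl and 33195, 13205 and 30694 in GALNT7 KD. GALNT7 KD 1 and 3 lay far below shControl 1 and 3, and the groups overlapped through shControl 2. The log2 fold change was -0.76 (SE 0.60, limma adjusted p = 0.48), and -1.0 (SE 0.043, adjusted p = 0.0050) without the number 2 libraries. MT-ATP8, which shares its mRNA, counted 8949, 2297 and 8610 against 4505, 2012 and 4245, with a log2 fold change of -0.73, and of -1.01 without the number 2 libraries (adjusted p = 0.0076).

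MT-CYB, the cytochrome b of complex III, showed the same picture. It counted 28289, 8702 and 28253 in shControl and 15069, 7193 and 14236 in GALNT7 KD. The log2 fold change was -0.72 (SE 0.51, limma adjusted p = 0.42), and -0.95 (adjusted p = 0.0050) without the number 2 libraries.

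For complex I, the members differed among themselves. MT-ND5 counted 24542, 8284 and 24553 in shControl and 14846, 7442 and 13741 in GALNT7 KD, and MT-ND4 counted 76439, 22719 and 77164 against 46582, 21626 and 43395. In both, shControl 2 fell into the range of the GALNT7 KD libraries. Without the number 2 libraries their log2 fold changes were -0.78 (adjusted p = 0.010) and -0.77 (adjusted p = 0.0069), and those of MT-ND4L, MT-ND1 and MT-ND2 were -0.75, -0.64 and -0.59, all with an adjusted p under 0.05 in limma. MT-ND3 had the smallest value, with counts of 7361, 3301 and 7422 in shControl and 6632, 4624 and 6160 in GALNT7 KD. Here GALNT7 KD 2 was above shControl 2, and the log2 fold change was 0.02 with all libraries and -0.21 (adjusted p = 0.12) without the number 2 libraries.

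In complex IV the catalytic subunit gene MT-CO1 counted 94936, 38800 and 93337 in shControl and 69333, 40338 and 67236 in GALNT7 KD. MT-CO2 counted 69445, 18030 and 68377 against 44930, 18349 and 43896, and MT-CO3 46926, 19327 and 46171 against 32959, 20244 and 31783. In these 3 genes the number 2 libraries of both groups were nearly equal. Their log2 fold changes were -0.29, -0.41 and -0.33 with all libraries and -0.46, -0.63 and -0.52 without the number 2 libraries, where the limma adjusted p was 0.0076, 0.0050 and 0.0097.

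The rRNAs had smaller values than most mRNAs. MT-RNR2, the large subunit rRNA, counted 34260, 15943 and 35046 in shControl and 25004, 15954 and 23036 in GALNT7 KD, a log2 fold change of -0.35, or -0.53 (adjusted p = 0.022) without the number 2 libraries. MT-RNR1, the small subunit rRNA, counted 5162, 2480 and 5044 against 4069, 2815 and 3929, with log2 fold changes of -0.17 and -0.35 (adjusted p = 0.051). Both rRNAs were less reduced in shControl 2 than the mRNAs, at 46.0% and 48.6% of the mean of the other shControl libraries, against 25.2% for MT-ATP6 and 41.2% for MT-CO1. MT-ND6 stood at 89.8% of that mean.

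**Figure D2:**
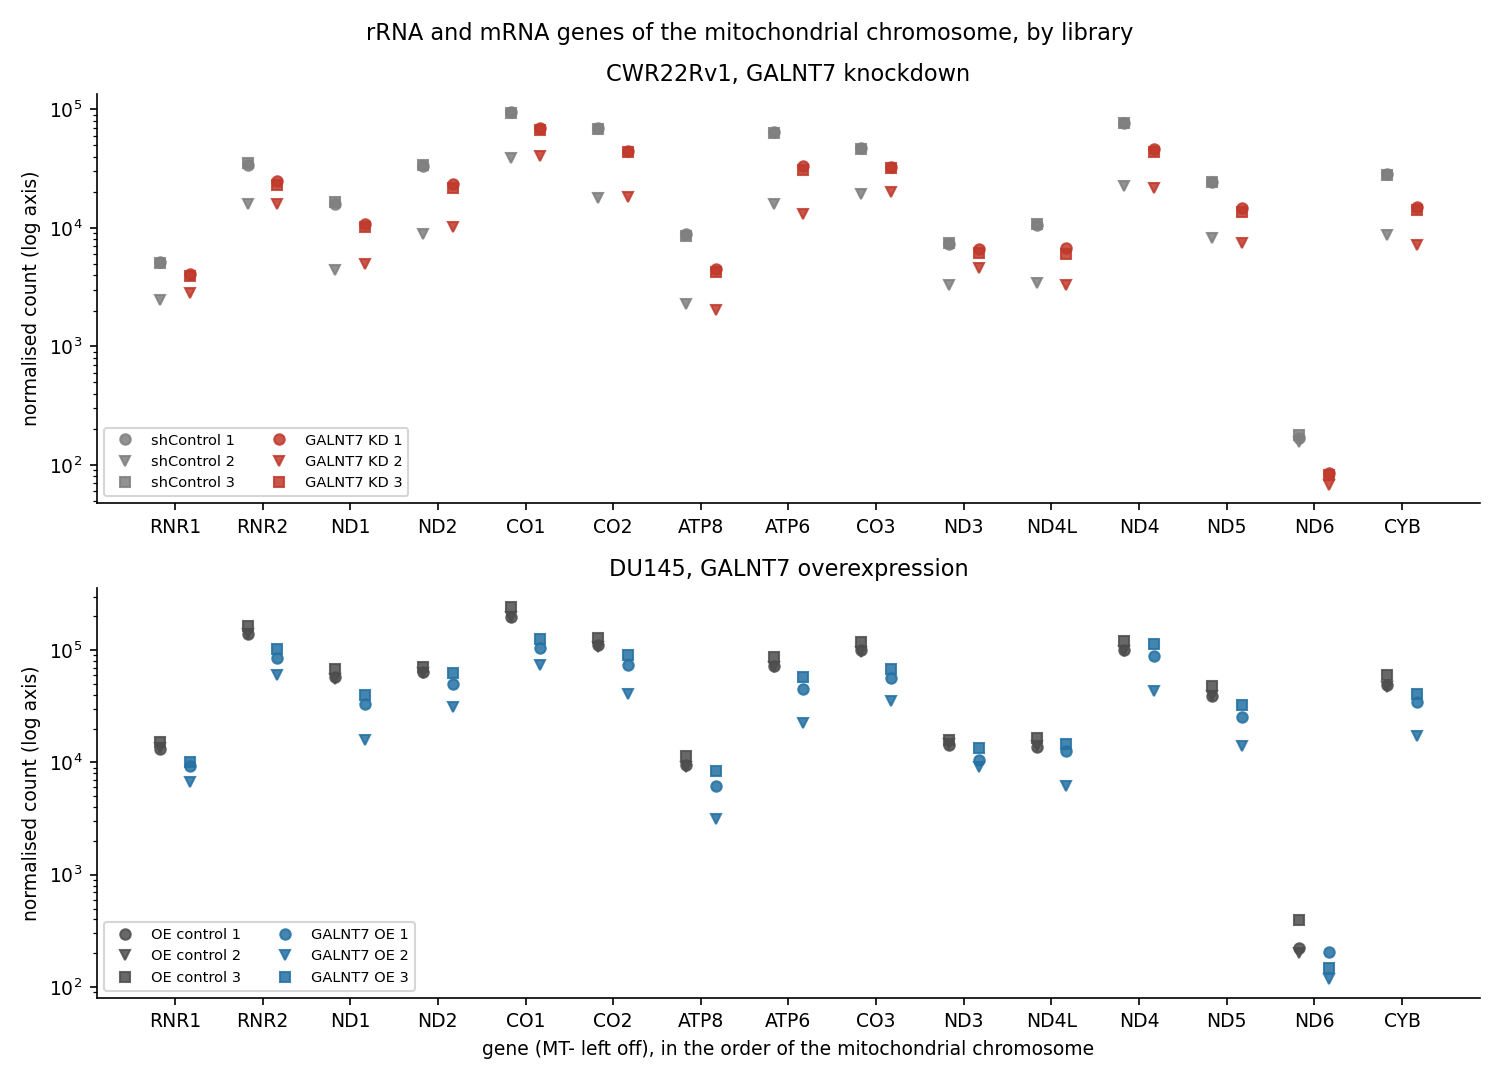
Normalised counts on a log axis of the 2 rRNA and 13 mRNA genes in the order of the chromosome, one point per library, with the marker giving the replicate number and the colour the group. In CWR22Rv1 cells the triangles (replicate number 2) lie below the other points of their group, least so at ND6, and in DU145 cells the GALNT7 OE triangles lie lowest for all 15 genes.

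After overexpression 14 of the 27 members tested fell (7 mRNAs, both rRNAs and 5 tRNAs) and none rose, while 20.5% of all 18705 genes were called lower and 22.9% higher. The 13 that did not pass include MT-TA and MT-TN, the only members with values above 0 (0.27 and 0.13). None had a higher level at an unadjusted p under 0.05, and edgeR and DESeq2 called 11 and 15 members lower and none higher. Rescaled to the 75th percentile of each library, the split over all genes went from 3842 lower and 4290 higher to 4736 lower and 3380 higher, and the median log2 fold change of all genes from -0.011 to -0.11. Under that scaling 15 members were lower and the median of the 13 mRNAs was -0.93, against -0.83 as deposited. Without the number 2 libraries, 14 of 27 were again lower in limma and none higher (none at an unadjusted p under 0.05), where 13.1% of all genes were called lower and 15.3% higher, and the median of the mRNAs was -0.53. Without GALNT7 OE 2 alone it was -0.48.

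Both rRNAs fell. MT-RNR2 counted 138981, 140534 and 162973 in the OE control and 85783, 59784 and 102567 in GALNT7 OE, a log2 fold change of -0.87 (SE 0.18, limma adjusted p = 0.0085). MT-RNR1 counted 13134, 13568 and 15129 against 9296, 6677 and 10152, a log2 fold change of -0.70 (SE 0.15, limma adjusted p = 0.0090). No GALNT7 OE library reached the lowest control in either gene. The values were -0.68 and -0.54 when the number 2 libraries were left out, with adjusted p of 0.013 for each.

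The 3 complex IV mRNAs fell as well. MT-CO1 counted 198935, 197044 and 244085 in the OE control and 105211, 73349 and 126461 in GALNT7 OE, a log2 fold change of -1.10 (SE 0.19, limma adjusted p = 0.0037). MT-CO3 counted 100009, 97338 and 118278 against 56069, 35567 and 68556, and MT-CO2 110939, 107548 and 128068 against 74584, 40956 and 91298. The groups did not overlap in any of the 3, and GALNT7 OE 2 was the lowest library each time. The log2 fold changes of MT-CO3 and MT-CO2 were -1.02 (adjusted p = 0.0097) and -0.82 (adjusted p = 0.047). MT-CO2 lost the threshold in edgeR on the recovered reads (adjusted p = 0.060) and under quantile normalisation (adjusted p = 0.20), which also took MT-CO1 to -0.37 (adjusted p = 0.11).

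Complex I genes split into those that fell and those with smaller values. MT-ND1 counted 57982, 55973 and 68423 in the OE control and 33085, 15809 and 40184 in GALNT7 OE, a log2 fold change of -1.13 (SE 0.32, limma adjusted p = 0.026). MT-ND5 fell by 0.88 on the log2 scale (adjusted p = 0.041), from 42143 ± 4942 to 24080 ± 9238 (SD, n = 3), and MT-ND3 by 0.45 (adjusted p = 0.031). MT-ND3 was not past the threshold once the number 2 libraries were left out (-0.34, adjusted p = 0.11). MT-ND4 counted 100800, 98819 and 121832 in the OE control and 89540, 43618 and 114339 in GALNT7 OE. Its groups overlapped, and most of its difference came from GALNT7 OE 2, since the log2 fold change was -0.48 (adjusted p = 0.28) with all libraries and -0.13 (adjusted p = 0.53) without the number 2 libraries. MT-ND4L on the same mRNA had -0.49 and -0.14, and MT-ND2 -0.51 and -0.27, none past the threshold. MT-ND6 counted 221.4, 201.5 and 397.0 against 205.5, 117.4 and 146.8, with overlapping groups and a log2 fold change of -0.77 (adjusted p = 0.082).

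Of the remaining mRNAs, MT-ATP6 fell from 76725 ± 8627 to 41836 ± 17974 (SD, n = 3), or by a log2 ratio of -0.97 (SE 0.32, limma adjusted p = 0.044). It was not past the threshold in edgeR (adjusted p = 0.059). MT-ATP8 and MT-CYB had values of -0.87 (adjusted p = 0.071) and -0.83 (adjusted p = 0.061) with no overlap between the groups, and MT-CYB passed without the number 2 libraries (-0.52, adjusted p = 0.032). The calls of MT-ND1, MT-CO2, MT-ATP6, MT-ND3 and MT-ND5 each needed all 3 controls, since with OE control 1, 2 or 3 left out their adjusted p was between 0.056 and 0.12. MT-CO2, MT-ATP6, MT-ND3 and MT-ND5 were also not past the threshold without GALNT7 OE 1 (0.066 to 0.082).

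**Figure D3:**
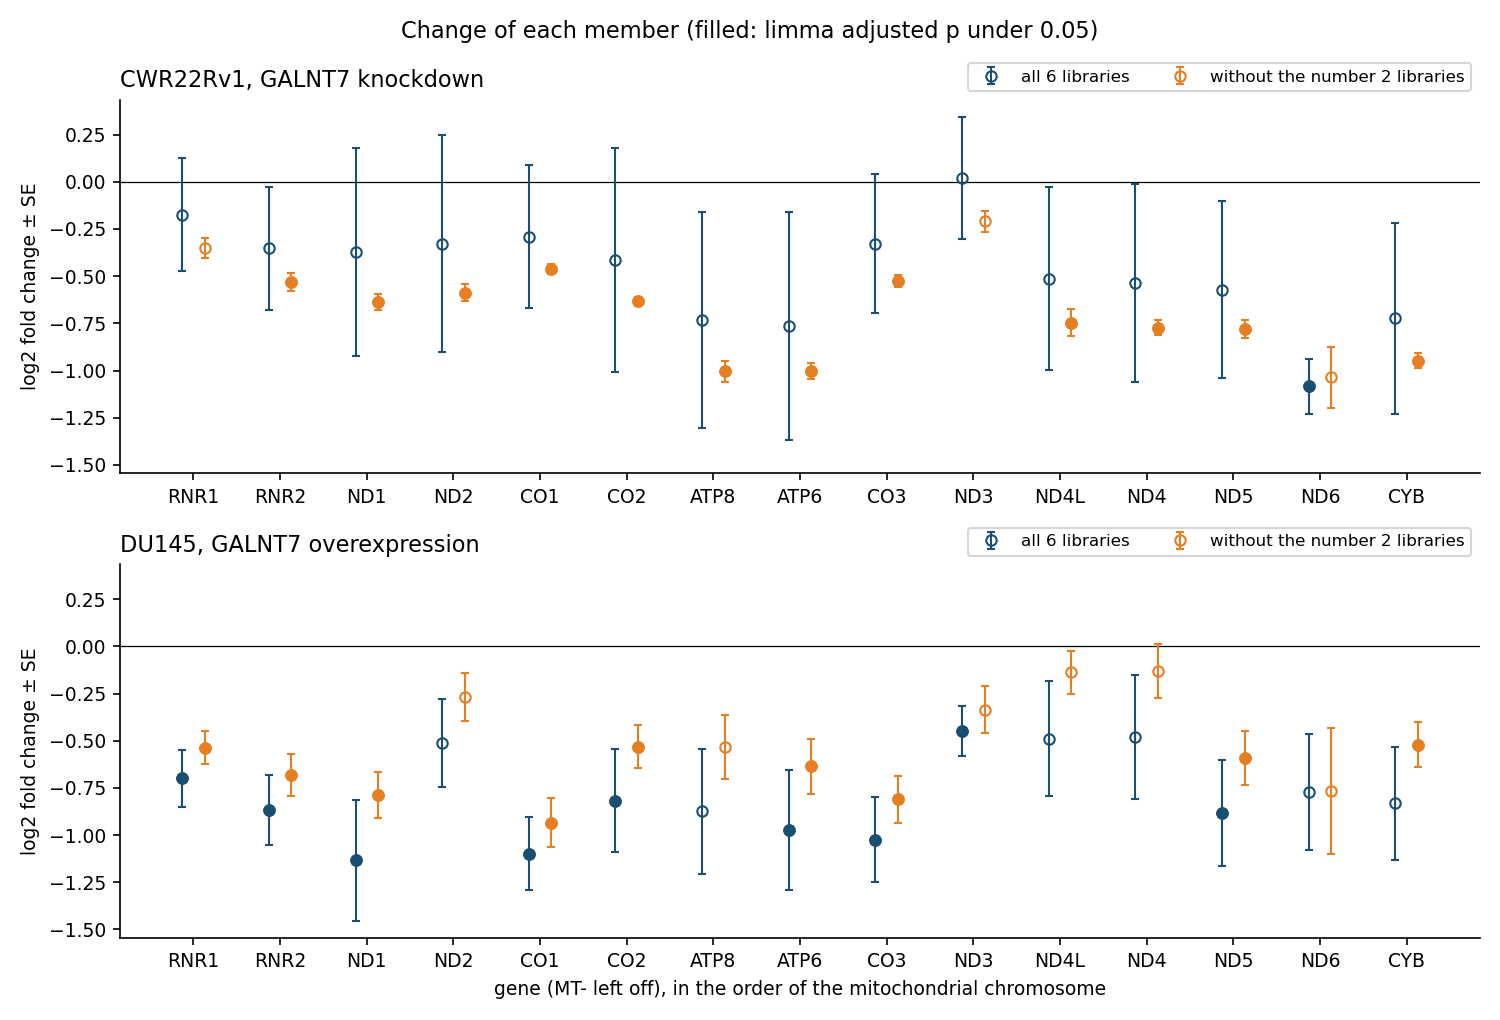
Log2 fold change of each rRNA and mRNA gene with its standard error, from limma with all 6 libraries of a cell line and without the number 2 libraries, in the order of the chromosome; filled points have an adjusted p under 0.05. In CWR22Rv1 cells only MT-ND6 is filled with all libraries, and 12 genes are filled once the number 2 libraries are left out, when MT-ND6 is not (adjusted p = 0.054). In DU145 cells all 15 points are below 0 in both fits.

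The tRNA genes had few reads. In CWR22Rv1 cells 20 of the 22 had a mean normalised count under 5, with a highest mean of 4.31 among those 20, and MT-TW had no read in any library. MT-TL1, the leucine tRNA behind MT-RNR2, was the most abundant in both lines. It counted 151.2, 34.5 and 132.8 in shControl and 116.0, 59.7 and 81.9 in GALNT7 KD, with overlapping groups and a log2 fold change of -0.10 (limma adjusted p = 0.94). In DU145 cells 12 tRNA genes entered the test, 10 on the plus and 2 on the minus strand of the reference, and the 5 that fell are all on the plus strand. MT-TV, the valine tRNA between the rRNA genes, counted 79.2, 85.9 and 76.6 in the OE control and 26.1, 22.2 and 31.5 in GALNT7 OE. Here the log2 fold change was the lowest of the 27 members with all libraries, while MT-TD was lower (-1.47) without the number 2 libraries. MT-TV had a log2 fold change of -1.58 (SE 0.19, limma adjusted p = 0.000749), and -1.41 (adjusted p = 0.015) without the number 2 libraries. GALNT7 OE 2 was not far from the other GALNT7 OE libraries here. MT-TL1 counted 308.3, 319.1 and 379.8 against 141.3, 88.7 and 219.2 (log2 fold change -1.25, adjusted p = 0.015, and 0.051 without OE control 3), and MT-TT 90.7, 82.8 and 94.7 against 51.1, 31.4 and 47.2 (-1.06, adjusted p = 0.0074). MT-TM and MT-TD, which have means under 50, were the other tRNAs past the threshold, at -1.53 and -1.17. Reads on a tRNA gene in such a library could come from tRNAs or from precursors that still hold them, which these values cannot tell apart.

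The make-up of the mRNA reads was described gene by gene. In knockdown the share of the 13 mRNAs' reads held by MT-CYB was 5.88%, 5.63% and 5.89% in shControl and 4.88%, 4.68% and 4.85% in GALNT7 KD, and the number 2 libraries stood near the others of their group in this measure. MT-ND5 (5.20% ± 0.146 and 4.78% ± 0.0849, SD, n = 3) and MT-ATP8 (1.71% ± 0.199 and 1.41% ± 0.0825) were the other genes of the 13 whose groups did not overlap, all lower in GALNT7 KD. In overexpression 8 of the 13 did not overlap, 4 with a higher share and 4 with a lower one. The higher ones were MT-ND4 (12.2% ± 0.0974 to 15.8% ± 1.65, SD, n = 3), MT-ND2 (7.50% ± 0.239 to 9.49% ± 0.411), MT-ND4L and MT-ND3, all of complex I. The lower ones were MT-CO1 (24.3% ± 0.356 to 20.5% ± 2.52), MT-CO3, MT-ND1 and MT-ATP6. The MT-CO1 groups were separated narrowly, with 23.4% in GALNT7 OE 2 and 23.9% in OE control 1. So were those of MT-ATP6, with 8.66% in GALNT7 OE 3 and 8.72% in OE control 2. In knockdown the MT-ATP8 groups were also close, with 1.46% in GALNT7 KD 1 and 1.49% in shControl 2. Such shares add up to 100%, so one gene's share cannot rise without another's falling, and 3 against 3 libraries allow no p below 0.1. The measure has no counterpart over all genes, so the counts of genes without overlap are a description.

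**Figure D4:**
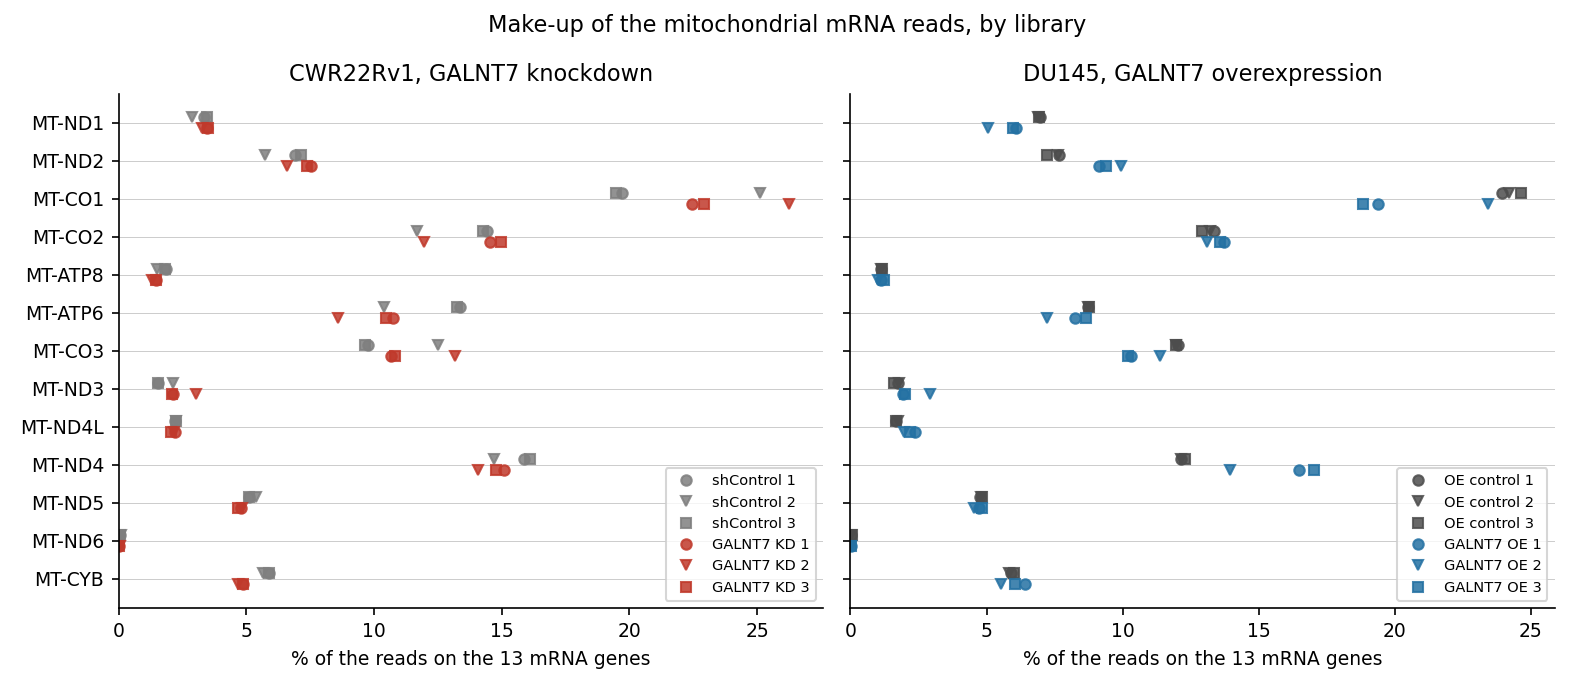
Percent of the reads on the 13 mitochondrial mRNA genes that each gene holds, one point per library, with the marker giving the replicate number and the colour the group. In DU145 cells the ND4 points of GALNT7 OE lie right of all OE control points and the CO1 points left of them, and in CWR22Rv1 cells the CYB points of GALNT7 KD lie left of all shControl points.

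The ratio of summed rRNA reads to summed mRNA reads had overlapping groups in both cell lines. The log2 ratio was -3.42 ± 0.305 in shControl and -3.30 ± 0.228 in GALNT7 KD (SD, n = 3; two-sided exact permutation test, p = 0.5), and -2.44 ± 0.0373 in the OE control and -2.44 ± 0.181 in GALNT7 OE (p = 1). This rRNA to mRNA ratio was highest in the number 2 library of each of the 4 groups. In knockdown it was -3.61, -3.07 and -3.58 in the shControl replicates and -3.41, -3.03 and -3.44 in the GALNT7 KD replicates. It was thus higher in GALNT7 KD at each replicate number. Over the replicates 1 and 3 alone the means were -3.59 in shControl and -3.43 in GALNT7 KD. The log2 ratio of MT-ND6 to the 12 heavy strand mRNAs was -10.9 ± 0.857 in shControl and -11.6 ± 0.389 in GALNT7 KD (two-sided exact permutation test, p = 0.3), and -11.7 ± 0.375 and -11.6 ± 0.453 in the DU145 groups (p = 1). Within the rRNAs, the log2 ratio of MT-RNR2 to MT-RNR1, looked at after the values were seen, was 2.74 ± 0.0564 in shControl and 2.56 ± 0.0586 in GALNT7 KD, and 3.40 ± 0.0283 in the OE control and 3.24 ± 0.0907 in GALNT7 OE (SD, n = 3). The groups did not overlap in either cell line, with p = 0.1 in each, the smallest that the exact permutation test can give.

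Some reads counted on nuclear genes may belong to these members, since the nuclear genome holds copies of mitochondrial DNA. Of 407 annotated nuclear copies, 357 had no read in CWR22Rv1 cells and 357 none in DU145 cells. The highest was MTATP6P1 on chromosome 1, which counted 13.8% to 14.3% of MT-ATP6 in each CWR22Rv1 library and 13.3% to 13.7% in each DU145 library. MTND2P28 counted 5.28% to 5.79% and 3.33% to 3.76% of MT-ND2, and MTND4P12 1.77% to 2.31% and 2.09% to 2.40% of MT-ND4. These 3 copies thus followed their mitochondrial gene from library to library, shControl 2 included. MTND1P23 varied more, from 1.67% to 3.76% and from 2.72% to 4.56% of MT-ND1, and MTCO1P12 did not exceed 0.0952% of MT-CO1. MTRNR2L1 was at 0.513% to 0.788% of MT-RNR2 in the DU145 libraries and at most 0.0134% in the CWR22Rv1 libraries. Of the copies tested, 1 of 9 was called lower in knockdown (MTND6P4) and 4 of 12 in overexpression, MTATP6P1 (log2 fold change -0.97) and MTRNR2L1 (-1.06) among them, where 3.79% and 20.5% of all genes were lower. The counts were 3 and 2 with the number 2 libraries left out, when MTND6P4 was not past the threshold (adjusted p = 0.158). How the reads were divided between a member and its copies is not given in the sources used here.

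As a measure of RNAs without a long poly(A) tail, 8 nuclear noncoding genes such as RN7SK and RN7SL1 were summed. Together they counted 214 to 428 in shControl cells, 88.0 to 213 in GALNT7 KD cells, where RN7SL2 was called lower (log2 fold change -2.02, limma adjusted p = 0.015, but -1.83 and 0.108 without the number 2 libraries), and 193 to 236 in the OE control and 199 to 246 in GALNT7 OE. The similar sums in DU145 cells hold values of both signs among the 4 genes tested there, none of them called. RN7SK (log2 fold change -0.72, limma adjusted p = 0.083) and SNORD3A (-1.53, adjusted p = 0.057) were lower in GALNT7 OE without overlap. RN7SL1 (0.13) and RN7SL2 (0.50) were higher with overlapping groups. RMRP, SCARNA2 and VTRNA1-1 were at 0 in all CWR22Rv1 libraries. The part of the poly(A) selection in the mitochondrial values was not tested.

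The nuclear genes that copy, transcribe and process mitochondrial DNA and RNA were described from a fixed list of 40 factors, of which 39 entered each test. In knockdown 1 was lower and 3 higher, or 2.56% and 7.69% of the list, near the 3.79% and 5.28% of all genes. FASTKD1, an RNA-binding protein of mitochondria, passed the size limit of 0.5 with a log2 fold change of 0.56 (limma adjusted p = 0.043), from 367 ± 61.0 to 539 ± 23.6 (SD, n = 3). TFB2M, the transcription initiation factor, rose by 0.32 (adjusted p = 0.029) and HSD17B10, a subunit of mitochondrial RNase P, by 0.27 (adjusted p = 0.031), whereas TOP1MT, the mitochondrial topoisomerase, fell by 0.44 on the log2 scale (adjusted p = 0.017). With the number 2 libraries left out, none of the 39 was called by limma, with 9 at an unadjusted p under 0.05 (2 lower and 7 higher). TFB2M, HSD17B10 and TOP1MT, smaller than 0.5, are named because the calls were 4 in all.

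In overexpression 26 of the 39 factors rose and 2 fell (REXO2 and FASTK), where 22.9% of all genes were higher and 20.5% lower, with a median log2 fold change of 0.46 beside -0.011 for all genes. The stabilising partner proteins of mitochondrial mRNA were among those that rose, SLIRP from 548 ± 42.1 to 1043 ± 57.7 (SD, n = 3; log2 fold change 0.93, limma adjusted p = 2.0e-04). FASTKD1 (0.88), MTERF3, a negative regulator of mitochondrial transcription (0.85), MGME1, a nuclease of mitochondrial DNA replication (0.79), and MTPAP, the mitochondrial poly(A) polymerase (0.78), rose too. So did TFB1M, which methylates MT-RNR1 (0.68), TRMT10C, a subunit of mitochondrial RNase P (0.67), and the single-stranded DNA binding protein SSBP1 (0.67). TFB1M did not pass without the number 2 libraries (adjusted p = 0.092). In that setting 20 of the 39 were higher, beside 15.3% of all genes.

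Set beside the nuclear subunits of the same complexes, the mitochondrial genes had the lower values in both comparisons. In knockdown the median log2 fold change was -0.51 for the 7 mitochondrial and 0.080 for the 36 nuclear genes of complex I, -0.33 for 3 and -0.015 for 11 of complex IV, and -0.75 for 2 and 0.040 for 15 of complex V. MT-CYB, the only mitochondrial gene of complex III, was at -0.72, and the median of its 9 nuclear partners was 0.0048. In overexpression the medians were -0.51 and 0.41 for complex I, -0.83 and 0.52 for complex III, -1.02 and 0.53 for complex IV and -0.92 and 0.60 for complex V. Of the 71 nuclear subunits, 56 rose in overexpression and 1, NDUFB7, fell, while in knockdown 4 rose (NDUFV2, NDUFS1, NDUFB4 and UQCRC1) and 5 fell (ATP5MC2, ATP5F1B, NDUFA12, NDUFB10 and COX6A1), none by more than 0.36. In knockdown 5.63% of the list was thus higher, near the 5.28% of all genes, and 7.04% was lower, above the 3.79% of all genes. In overexpression 78.9% of the list was higher beside 22.9% of all genes. With the number 2 libraries left out, limma called none of the 71 in knockdown (11 higher and 8 lower at an unadjusted p under 0.05) and 52 higher and 1 lower in overexpression. Among the largest were ATP5MC1, the c subunit of the ATP synthase (log2 fold change 1.05), UQCRFS1, the Rieske protein of complex III (0.87), COX7B of complex IV (0.85) and NDUFS1 of complex I (0.84), each with a limma adjusted p under 0.05. The difference between the 2 gene sets was not tested.

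**Figure D5:**
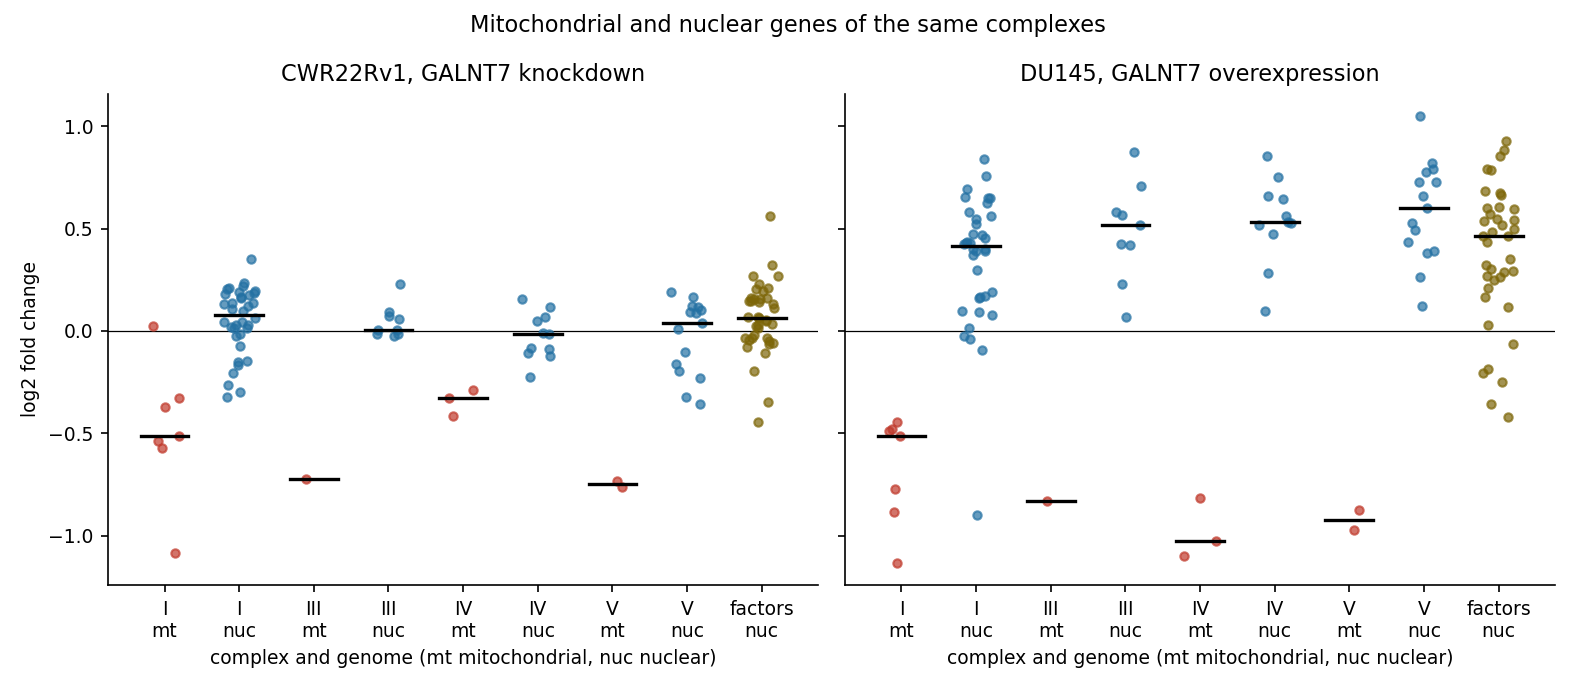
Log2 fold change of the mitochondrial and nuclear genes of complexes I, III, IV and V and of the 39 nuclear expression factors, one point per gene, with a line at the median. In DU145 cells the points of the mitochondrial genes are all below 0 and the medians of the nuclear genes lie between 0.41 and 0.60, and in CWR22Rv1 cells the nuclear medians lie near 0.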

How the data were processed

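The authors deposited one table of normalised counts per cell line, a signal in which the reads of a gene were scaled by a factor of its library. The submitters' processing notes name FastQC, Salmon, DESeq2, R 3.5.3 and hg38, without their roles. Libraries were prepared with the TruSeq Stranded mRNA kit from RNeasy RNA. Each value was divided by the smallest value above 0 of its library to recover reads, and 100% of the values were whole within 0.01 reads. In OE control 3 and GALNT7 OE 1 that smallest value was 1.01 and 1.00, so close to 1 that a separate check on low values did not accept the recovery for these libraries. Shares of reads do not depend on it, while the read numbers given for these libraries and the tests by edgeR and DESeq2 do. Genes, positions and sequences came from GENCODE release 29, which holds 94.4% of the gene identifiers, and of the fixed lists all genes were found except NDUFA10.

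Each cell line was fitted separately with limma 3.58.1 in R 4.3.3 (lmFit, eBayes with trend) on log2(normalised count + 1), keeping genes whose mean over 6 libraries reached 5, with Benjamini-Hochberg adjustment over all genes tested and a threshold of 0.05. Shares and ratios were compared by two-sided exact permutation tests in scipy 1.17.1. The fits were tested on simulated data. Alternatives were other pseudocounts, filters, scalings, a replicate block, edgeR 4.0.16 and DESeq2 1.42.0 on the recovered reads, each library left out and, added after the data were seen, the number 2 libraries of both groups left out. The biological replicates are not described further, so p-values measure the spread between these cultures.

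The members and lists were chosen with earlier results of these data known. Named are all mRNA and rRNA genes, tRNA genes with a mean of at least 50 in either line, list members past the threshold with an absolute log2 fold change of at least 0.5 (at most the 8 largest), and nuclear copies with a mean of at least 50. Other genes are named where a count of 5 or fewer turns on them, or as examples chosen after their values were seen. One of the cell line markers is not reported here.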

Additional observations from a re-analysis of the deposited data

How the results depend on the processing

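Of the results across all members, the count called in knockdown was 1 under each alternative listed in the methods, left-out single libraries included, and 12 without the number 2 libraries of both groups. In overexpression it ranged from 9 (eBayes without trend) to 16 (replicate block), and from 8 to 18 with 1 library left out: 9 without OE control 1, 9 without OE control 2, 8 without OE control 3, 10 without GALNT7 OE 1, 14 without GALNT7 OE 2 and 18 without GALNT7 OE 3. The difference in the mitochondrial share stayed negative throughout, from -1.23 to -0.351 percentage points in knockdown and from -2.43 to -1.55 in overexpression with 1 library left out, and the median of the 13 mRNAs from -1.06 to -0.19 and from -1.07 to -0.48.

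Over all genes, knockdown gave 678 lower and 945 higher, but 408 and 594 with the replicate block, 417 and 579 without trend, 1176 and 1490 in DESeq2 and 172 and 236 without the number 2 libraries, and between 201 and 606 lower and 305 and 730 higher with 1 library left out. Overexpression gave 2462 and 2875 without the number 2 libraries, against 3842 and 4290.

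Whether the same numbers pair the libraries cannot be settled here. The deviations of same-numbered libraries correlated between -0.011 and 0.075 across all genes. In mitochondrial share, however, shControl 2 and GALNT7 KD 2 were both low, while OE control 2 was not. In the block fit the limma adjusted p of MT-CYB was 0.058 in knockdown (0.42 without the block) and 0.026 in overexpression (0.061 without it). With the replicate number as a block, 2 expression factors and 3 nuclear subunits were called in knockdown instead of 4 and 9, the share differed by -0.644 points (exact sign-flip test, p = 0.5; the smallest p of 3 pairs is 0.25), and in overexpression by -2.03 (p = 0.25). The knockdown counts of factors and subunits were 1 and 0 without trend (subunits at an unadjusted p under 0.05: 16, as 8 lower and 8 higher), 7 and 16 in DESeq2 and 0 and 0 without the number 2 libraries (unadjusted 9 and 19), and from 0 to 5 and from 1 to 6 with 1 library left out. In edgeR they were 3 and 9. In overexpression they stayed between 23 and 29 and between 55 and 57 with 1 library left out.

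Ratios near 0 changed sign. In overexpression the rRNA to mRNA log2 ratio differed by 0.00069, but by -0.015 with MT-RNR2 only and by -0.082 without the number 2 libraries, and from -0.10 to 0.068 with 1 library left out. The MT-ND6 ratio differed by 0.077, but by -0.18 without the number 2 libraries, and from -0.057 to 0.34 with 1 left out. In knockdown the rRNA ratio went from -0.0076 to 0.30 and the MT-ND6 ratio from -0.91 to -0.15.

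For single genes in knockdown, MT-ND3 (0.02) was -0.060 in edgeR, -0.058 in DESeq2, -0.21 without the number 2 libraries and -0.37 to 0.22 with 1 left out, and MT-CO1 was 0.028 under quantile normalisation. With 1 library left out, MT-TL1 ran from -0.77 to 0.28, MT-ND2 from -0.97 to 0.056, MT-CO2 from -1.06 to 0.011 and MT-RNR1 from -0.52 to 0.0082. None of these was called in knockdown with all libraries. The cause of these changes was not tested. The tRNA genes and MT-ND6 had few reads, with 64 to 194 a library for MT-ND6 in knockdown and 127 to 394 in overexpression. How far depth limits their values was not tested.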
